A study of Mus musculus with 20 samples.

Results

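Heat shock proteins and other molecular chaperones were followed in liver and brown adipose tissue (BAT) of 2 mouse lines. Clones were taken when annotated to 1 gene whose symbol starts with Hsp and a digit, Hspa, Hspb, Hspd, Hspe, Hsph, Dnaja, Dnajb, Dnajc or Cct and a digit, or is Tcp1. This gave 46 of the 6970 genes on either array design, with 33 of 3838 genes on the first design, 23 of 4075 on the second and 10 on both. By family they were 2 Hsp90 genes, 9 Hsp70 and Hsp110 genes, 23 J-domain genes, 7 subunits of the chaperonin TRiC, 2 entries for the mitochondrial chaperonin and 2 small heat shock protein genes. One entry of the mitochondrial chaperonin, Hspd1-ps3, is annotated as a pseudogene of Hspd1, and a cDNA probe may not tell the pair apart, nor other close relatives within a family. The remaining gene, Hspbp1, was caught by its symbol and encodes a nucleotide exchange factor of Hsp70, not a small heat shock protein.

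Chaperones bind unfolded or partly folded proteins and keep them from aggregating. Hsp70 proteins bind short stretches of their clients in a cycle driven by ATP, in which J-domain proteins deliver clients and exchange factors such as the Hsp110 proteins reset the cycle. Hsp90 acts later on signalling proteins and hormone receptors, the ring-shaped TRiC complex folds actin, tubulin and other cytosolic proteins, and Hspd1 with its cofactor folds proteins inside mitochondria. Heat shock factors switch on many of the cytosolic genes, whereas the chaperones of the endoplasmic reticulum (ER) answer to unfolded proteins in the secretory pathway, which is large in hepatocytes.

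The study set the Fob3b line against the F line. The F line was bred for fatness, and the Fob3b line has the same background apart from the obesity locus of that name, where its alleles come from lean mice. Total RNA of 2 pools per line and tissue was hybridised on 2-colour spotted cDNA arrays, 10 arrays a design. Both designs held 4 liver arrays (pool pairs 1 and 2, each with both dye orientations), and the first held 4 BAT arrays and the second 2 BAT arrays of pool pair 1. The first design also had 1 liver pool of each line hybridised with itself, and the second had 2 crossed-pool liver arrays and 2 arrays of liver pool 2 over pool 1 within a line. Sex, age and the number of mice per pool are not stated by the labels. The arrays of a pool pair hold the same RNA and were averaged to 1 replicate, so n was 2 pool pairs, and p-values cover the spread between pools.

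Values are log ratios with Fob3b over F, read as log2, and 0 is the median clone of the array. The sources do not say which dye was divided by which: a positive value is more RNA in Fob3b than in F if red was divided by green, and less if not, and all signs would turn together. For this reason values are described as lying on the positive or the negative side. Ratios give no level, so the tissue labels could not be checked against the levels of marker genes. The BAT arrays of the second design are described by the depositors as F against F, but their channel labels name Fob3b in 1 channel, and the channel labels were used. The description of the Fob3b same-pool array also differs from its channel labels, which were used there too. On the first design, 1 liver array (pool pair 1 with Fob3b in green) stood apart for many chaperones. Over all genes, the dye swaps of liver pool pair 2 and of both BAT pool pairs ran against each other, most in BAT pool pair 2. The count of positive chaperones in each tissue is therefore also given without 1 array, and for each pool pair alone. Most values of single genes and of the gene lists further below rest on all arrays. Array values are listed as pool pair 1 with Fob3b in red, pool pair 1 with Fob3b in green, and then the same for pool pair 2.

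Promoters of 36 of the 46 genes were in RefSeq (build GRCm38.p6), from 250 bases before to 50 after the start. The ER stress element, the letters CCAAT and CCACG with 9 bases between them, on either strand, stood in 3 of these 36 promoters, against 0.137% of 27025 genes and 0.248% of the 5644 arrayed genes with a promoter. The 3 genes were Hspa5, Hsp90b1 and Dnajc3, and all 3 encode proteins of the ER: BiP, which is its Hsp70, GRP94, which is its Hsp90, and a J-domain partner of BiP. They are printed because the values of these ER genes are followed below, with the element in capitals and each sequence read along its gene.
Hspa5 (chr2:34771840-34772139, plus strand): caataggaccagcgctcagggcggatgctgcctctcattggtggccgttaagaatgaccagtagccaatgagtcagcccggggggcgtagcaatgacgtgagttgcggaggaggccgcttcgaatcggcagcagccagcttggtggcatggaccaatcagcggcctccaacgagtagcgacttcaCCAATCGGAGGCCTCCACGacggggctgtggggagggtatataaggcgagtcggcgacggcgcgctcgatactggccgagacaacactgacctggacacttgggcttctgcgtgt
Hsp90b1 (chr10:86705395-86705694, minus strand): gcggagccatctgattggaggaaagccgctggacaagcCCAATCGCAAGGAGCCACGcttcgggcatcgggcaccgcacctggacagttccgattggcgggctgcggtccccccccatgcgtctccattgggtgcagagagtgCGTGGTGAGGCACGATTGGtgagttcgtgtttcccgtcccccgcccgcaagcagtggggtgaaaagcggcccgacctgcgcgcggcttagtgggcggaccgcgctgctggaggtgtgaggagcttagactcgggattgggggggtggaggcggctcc
Dnajc3 (chr14:118937682-118937981, plus strand): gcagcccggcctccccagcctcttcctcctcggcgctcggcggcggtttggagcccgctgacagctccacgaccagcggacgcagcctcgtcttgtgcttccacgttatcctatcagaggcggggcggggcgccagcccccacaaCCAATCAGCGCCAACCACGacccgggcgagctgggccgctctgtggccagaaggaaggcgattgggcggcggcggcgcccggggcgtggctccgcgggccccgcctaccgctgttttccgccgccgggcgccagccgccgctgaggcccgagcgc
Hsp90b1 held 2 copies, 212 and 107 bases before the start, on opposite strands, whereas Hspa5 held 1 copy 65 bases before it and Dnajc3 1 copy 105 bases before it.

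A heat shock element of 3 units, GAA and TTC in turn with NN between them, on either strand and starting with either unit, stood in the promoters of Hspd1, Hsph1 and Dnajb6, 3 of 36, against 0.662% of all 27025 genes and 0.532% of arrayed genes. The shorter element of 2 units, GAANNTTC or TTCNNGAA, which any match of the longer one also contains, stood in 10 of 36, against 17.0% of all genes and 14.0% of arrayed genes. Those 10 were Cct2, Cct5, Dnaja1, Dnajb4, Dnajb6, Dnajc10, Hspb1, Hspb8, Hspd1 and Hsph1. Hspd1 and Dnajb6 are printed as examples with the 3-unit matches in capitals.
Hspd1 (chr1:55087883-55088182, minus strand): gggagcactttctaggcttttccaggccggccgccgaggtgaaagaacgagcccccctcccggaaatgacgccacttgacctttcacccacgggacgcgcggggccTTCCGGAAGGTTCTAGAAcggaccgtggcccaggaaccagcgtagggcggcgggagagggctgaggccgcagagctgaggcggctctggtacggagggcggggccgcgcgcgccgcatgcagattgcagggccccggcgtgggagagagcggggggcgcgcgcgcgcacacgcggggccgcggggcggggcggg
Dnajb6 (chr5:29735648-29735947, plus strand): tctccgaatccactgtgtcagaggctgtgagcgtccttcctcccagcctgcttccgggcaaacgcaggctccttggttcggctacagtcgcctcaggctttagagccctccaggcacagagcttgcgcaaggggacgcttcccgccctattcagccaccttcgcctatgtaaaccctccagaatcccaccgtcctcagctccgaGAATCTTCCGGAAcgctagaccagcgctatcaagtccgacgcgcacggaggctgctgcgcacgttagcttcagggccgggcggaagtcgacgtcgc
In Hspd1 the capitals are 2 overlapping matches, the first 144 bases before the start, and in Dnajb6 the match began 46 bases before the start of the window shown and 127 bases before the other listed start. In Hsph1, which is not printed, the match lay after the listed starts and inside the window. A match describes letters in this window and does not show that a factor binds there.

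In BAT on the first design, 25 of the 33 chaperone genes had a mean on the positive side, against 60.2% of all 3838 genes. Their median was 0.11, and that of all genes was 0.04. The positive members were 6 of 6 TRiC subunits, both mitochondrial chaperonin entries, 4 of 5 Hsp70 and Hsp110 genes, 11 of 17 J-domain genes, 1 of 2 Hsp90 genes and Hspb8. No single gene of the array passed the limma test at an adjusted p under 0.05 in BAT (0%), and the smallest adjusted p among the chaperones was 1.0. At an unadjusted p under 0.05, 39 genes passed and 1 of them, Hspb8, was a chaperone. On all 4 arrays 6 chaperones were positive (3.41% of all genes) and 0 were negative (2.79% of all genes). In these tissue samples fewer cells of a type cannot be told apart from less RNA per cell.

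Hspd1, the mitochondrial Hsp60, had log2 ratios of 0.37, 0.55, 0.35 and 0.06 on the 4 BAT arrays, a mean of 0.33 ± 0.18 (SD, n = 2 pool pairs). All 4 values were positive, and the lowest was close to 0. Its 2 clones lay on opposite sides of 0 on both arrays of pool pair 2. Its pseudogene entry had 0.01, 0.91, -0.22 and 0.39, so that entry changed side within pool pair 2. Hsp90aa1, the stress-inducible Hsp90 of the cytosol, was spotted as 7 clones and had 0.35, 0.57, 0.14 and 0.17, with a mean of 0.31 ± 0.22 (SD, n = 2). Pool pair 1 lay above pool pair 2 on this gene, and each of the 7 clones had a positive mean.

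The other genes with 1 sign on every BAT array had smaller means. Cct3, a TRiC subunit, had log2 ratios of 0.22, 0.44, 0.03 and 0.29, with a mean of 0.24 ± 0.12 (SD, n = 2). Dnajc7, a cochaperone that binds both Hsp70 and Hsp90, had 0.08, 0.51, 0.01 and 0.19, with a mean of 0.20 ± 0.14 (SD, n = 2). Hspa8, the constitutive Hsp70, averaged 0.14 ± 0.16 and Dnajc9, a histone chaperone, averaged 0.09 ± 0.05 (SD, n = 2 each). Of these 6 means, that of Hspa8 was smaller than its SD between pool pairs, and the other 5 were larger than theirs. The signs are those of clone averages, and clones of a gene did not always share them. On the array of pool pair 2 with Fob3b in red, the 2 clones of Dnajc7 were at -0.75 and 0.78. Those of Cct3 ran from -0.24 to 0.38 there. The clones of Hspa8 lay on both sides of 0 on each array of pool pair 2.

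Hspb8, a small heat shock protein that acts with Bag3, had the largest mean of the 33, with log2 ratios of 0.63, 1.04, -0.16 and 0.70 in BAT. On 3 arrays it was high, and the array of pool pair 2 with Fob3b in red was negative. The mean was 0.55 ± 0.40 (SD, n = 2), with a standard error of 0.20 and a limma adjusted p of 1.0. At the other end, Dnajc21, a factor of ribosome assembly, averaged -0.16 ± 0.03 (SD, n = 2) with array values of 0.05, -0.41, 0.09 and -0.38. Its sign followed the dye and not the pool pair. Of the ER genes printed above, Hspa5 lay between -0.04 and 0.01, Hsp90b1 between -0.18 and 0.01, and Dnajc3 between -0.12 and 0.38 over the 4 arrays.

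**Figure D1:**
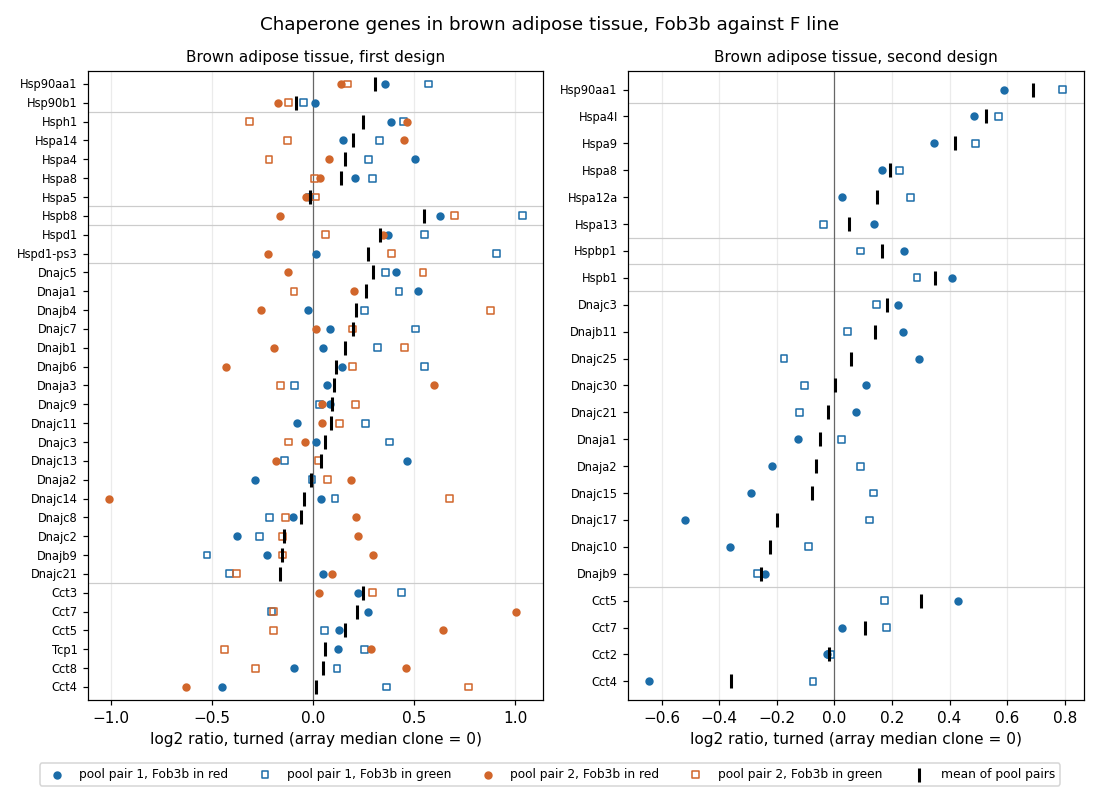
Log2 ratio of each chaperone gene in brown adipose tissue, Fob3b over F if red was divided by green, on the first design (left, 33 genes) and the second (right, 23 genes). Points are single arrays, coloured by pool pair and filled where Fob3b was in red; black bars are means over pool pairs and grey lines separate the families. Hsp90aa1 is positive on all 6 arrays, which hold 2 pool pairs by label, and many other genes have arrays on both sides of 0.

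The dye orientations of a pool pair did not rank genes alike on the first design. In BAT pool pair 2, the turned ratios of the dye swaps had a correlation across genes of -0.71 over the 33 chaperones and -0.58 over all genes, and 10 of 33 chaperones had 1 sign, against 27.9% of all genes. In pool pair 1 the correlation was 0.45 over the chaperones and -0.21 over all genes, with 24 of 33 of 1 sign, against 43.6% of all genes. Genes on an array share its dyes and printing blocks, and these correlations are descriptions. With the array of pool pair 2 that had Fob3b in red left out, a choice made after seeing the data, 21 of 33 chaperones were positive, against 49.1% of all genes, and the chaperone median was 0.09. Each pool pair alone gave 24 of 33 positive, against 56.0% of all genes in pool pair 1 and 53.9% in pool pair 2.

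In BAT on the second design, 14 of 23 chaperones had a positive mean, against 57.5% of 4075 genes, with a median of 0.06 and one of 0.03 over all genes. There was 1 pool pair and so no test. Both arrays were positive for 11 of 23 chaperones (38.0% of all genes) and both negative for 4 (25.5% of all genes). Past 1.5-fold with 1 sign on both arrays, 1 chaperone lay on the positive side (0.785% of all genes) and 0 on the negative side (0.663% of all genes). The Hsp70 and Hsp110 genes were all positive, 5 of 5 with a median of 0.19, whereas 4 of 11 J-domain genes and 2 of 4 TRiC subunits were.

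The gene past 1.5-fold was Hsp90aa1, with log2 ratios of 0.59 and 0.79 in this BAT pool pair and a mean of 0.69, or 1.61-fold. Without centring of the arrays, which put the median of all genes at -0.33, its value was 0.32 and no longer past 1.5-fold. Together with the first design it was positive on all 6 BAT arrays, which hold 2 pool pairs by label. Those of the second design repeat pool pair 1 and are described by the depositors as F against F. Hspa4l, an Hsp110-type exchange factor, had 0.49 and 0.57 and a mean of 0.53, just under the threshold of 0.585. Hspa9, the Hsp70 of mitochondria, had 0.35 and 0.49, and Hspb1, a small heat shock protein found in muscle and many other cells, had 0.41 and 0.29. For each of these 4 genes both dye orientations were well on the positive side.

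On the negative side the dye orientations lay far apart for Cct4 and close together for Dnajb9. Cct4, a TRiC subunit, had log2 ratios of -0.64 and -0.07 and a mean of -0.36, while its partner in the complex Cct5 had 0.43 and 0.17 and Cct7 had 0.03 and 0.18. Dnajb9 and Dnajc10, both J-domain proteins of the ER, had -0.24 and -0.27 for Dnajb9 and -0.36 and -0.09 for Dnajc10. Cct2, with -0.02 and -0.01, was negative by sign alone. Among other ER J-domain genes of this design, Dnajb11 and Dnajc3 averaged 0.14 and 0.18, so ER genes lay on both sides.

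Markers of skeletal muscle, a tissue that borders brown fat, lay on opposite sides of 0 on the designs. On the second design both measured markers of 20 listed were positive, Tpm2 at 0.74 and Mylpf at 0.69. On the first design both measured markers were negative, Actn3 at -0.47 and Tpm2 at -0.58. In pool pair 1, which carries the same labels on both designs, Tpm2 had -0.87 and -0.91 on the first design but 0.64 and 0.85 on the second. Of brown adipocyte markers only Elovl3 and Prdm16 were measured, on the second design, at means between -0.15 and -0.05. The part of muscle RNA in the chaperone values was not tested.

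The BAT arrays of pool pair 1 name the same pools on both designs, so the values of the 10 chaperones on both are given side by side and not as an independent repeat. That the RNA was the same rests on the labels, and Tpm2 lay on opposite sides. Hsp90aa1 averaged 0.46 (first design) and 0.69 (second), Hspa8 0.25 and 0.19, and Dnajc3 0.20 and 0.18. Cct5 averaged 0.09 and 0.30, Cct7 0.03 and 0.10, and Cct4 -0.05 and -0.36. Among the J-domain genes, Dnajb9 averaged -0.38 and -0.25, Dnaja2 -0.15 and -0.06, and Dnajc21 -0.18 and -0.02. Dnaja1, a J-domain partner of cytosolic Hsp70, averaged 0.47 and -0.05.

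In liver on the first design the chaperones lay mostly on the negative side: 9 of 33 had a positive mean, against 45.4% of all genes, and the median was -0.10 against -0.02 for all genes. The medians of the families ran between -0.22 for the Hsp70 and Hsp110 genes and -0.04 for TRiC. No gene was called (0%), 103 genes passed at an unadjusted p under 0.05, and 2 of these were chaperones, Dnajc3 and Dnajc5. On all 4 arrays 2 chaperones were positive (4.85% of all genes) and 4 were negative (3.41% of all genes).

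This count rested on the pool pair. In pool pair 1, 5 of 33 chaperones were positive, against 40.7% of all genes, with a median of -0.31. In pool pair 2, 22 of 33 were, against 60.4% of all genes, with a median of 0.13. The dye swaps of pool pair 2 had a correlation across genes of -0.32 over the chaperones and -0.29 over all genes. In that pair 16 of 33 chaperones had 1 sign, against 40.4% of all genes. The correlations in pool pair 1 were 0.16 and 0.12. Within pool pair 1 the array with Fob3b in green stood apart: its chaperone median was -0.42 against -0.06 for all genes. On that array Hsp90b1 was at -2.29, Dnajc14 at -2.17, Hspa8 at -1.55, Cct5 at -1.49 and Hspd1 at -1.40. With this array left out, chosen after seeing the data, 18 of 33 chaperones were positive, against 53.4% of all genes. Hepatocyte markers lay on the same side: 5 of 5 measured, of 14 listed, had a negative mean, with a median of -0.17, and 0 of 5 were positive in pool pair 1 and 4 of 5 in pool pair 2. On the array that stood apart Alb, the albumin gene, was at -2.27, Apob at -2.05 and Fga at -1.22, and their means were -0.74, -0.38 and -0.14. The part of hepatocyte RNA in the chaperone values was not tested.

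Among the chaperones with 1 sign on every liver array, Dnajc3 had log2 ratios of -0.34, -1.19, -0.03 and -0.45, a mean of -0.50 ± 0.37 (SD, n = 2) and a limma adjusted p of 1.0. All 4 values were negative, and the lowest was on the array that stood apart. Without that array the mean was -0.29. Dnajc5, the cysteine string protein of secretory vesicles, had -0.19, -0.61, -0.24 and -0.58, a mean of -0.40, and its pool pairs were at -0.40 and -0.41. For Dnajc5 the pool pairs were close, and each array with Fob3b in green was lower than its dye swap.

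Hspa4, an Hsp110-type exchange factor, had log2 ratios of -0.14, -0.54, -0.07 and -0.33 in liver, and Dnajc8, a splicing-associated J-domain protein, had -0.37, -0.02, -0.23 and -0.27. On the positive side, Dnajc9 had 0.24, 0.20, 0.03 and 0.92 and Dnajc2, a J-domain protein at the ribosome, had 0.05, 0.57, 0.05 and 0.43. In Dnajc9, with a mean of 0.35 ± 0.18 (SD, n = 2), 1 array was far above the others, and in Dnajc2 the arrays with Fob3b in green were the high ones.

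The ER genes whose promoters are printed above were all at -1.19 or lower on the liver array that stood apart. Hsp90b1 had log2 ratios of -0.19, -2.29, 0.80 and 0.22, with a mean of -0.36 ± 1.24 (SD, n = 2). Hspa5 had 0.07, -1.20, 0.29 and -0.03, with a mean of -0.22 ± 0.49 (SD, n = 2). For both genes the pool pairs lay on opposite sides of 0, and the spread was larger than the mean. Pool pair 1 alone put Hsp90b1 at -1.24 in liver, with a limma adjusted p of 0.0436 when the lone pair is assumed to vary like the BAT pairs, and pool pair 2 alone put it at 0.51. Hsp90aa1 had 0.22, -1.17, 0.39 and 0.32 in liver, 3 positive arrays and 1 negative.

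On the second design 14 of 23 chaperones had a positive mean in liver, against 51.8% of all genes, and the medians were 0.03 and 0.01. limma called 0.270% of all genes at an adjusted p under 0.05, 11 of 4075, and 0 of the 23 chaperones. At an unadjusted p under 0.05, 407 genes and 6 chaperones passed, the 6 being Hsp90aa1, Dnaja1, Hspa4l, Dnajb11, Dnajc30 and Dnajc3. On all 4 arrays 4 chaperones were positive (9.99% of all genes) and 1 was negative (8.96% of all genes).

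Hsp90aa1 had log2 ratios of 0.37, 0.04, 0.61 and 0.50 in liver on the second design, with a mean of 0.38 ± 0.25 (SD, n = 2), a standard error of 0.09 and a limma adjusted p of 0.111. Without centring of the arrays, which put the median of all genes at -0.36, its mean was 0.01. All 4 arrays were positive, 1 of them close to 0. Dnaja1 had -0.73, -0.34, -0.14 and -0.21, with a mean of -0.36 ± 0.25 (SD, n = 2) and a limma adjusted p of 0.130. Hspa4l had 0.01, 0.27, 0.25 and 0.41 and a limma adjusted p of 0.314. Dnajc30, a mitochondrial J-domain protein, had 0.29, 0.10, 0.33 and 0.08, and Cct2 had 0.16, 0.06, 0.12 and 0.11, the smallest spread of these genes. In pool pair 2, however, the 2 clones of Cct2 lay on opposite sides of 0. They had -0.16 and -0.03 against 0.39 and 0.24.

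Dnajb11 and Dnajc3, both of the ER, were highest in pool pair 2. Dnajb11, which works with BiP on secreted proteins, had log2 ratios of 0.05 and -0.08 in pool pair 1 and 0.71 and 0.45 in pool pair 2. Dnajc3 had 0.22 and -0.09 in pool pair 1 and 0.42 and 0.28 in pool pair 2, and its mean of 0.21 was on the other side of 0 from its mean of -0.50 on the first design. The designs share the liver pools by label. Of the other genes on both, Hsp90aa1 averaged -0.06 (first design) and 0.38 (second). Hspa8 averaged -0.36 (first design) and 0.03 (second), Cct5 -0.44 and 0.09, Dnaja2 -0.39 and 0.04, and Dnaja1 0.13 and -0.36. Dnajb9 averaged -0.13 and -0.11, Dnajc21 -0.04 and -0.06, Cct4 -0.02 and -0.02, and Cct7 -0.12 and 0.00.

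**Figure D2:**
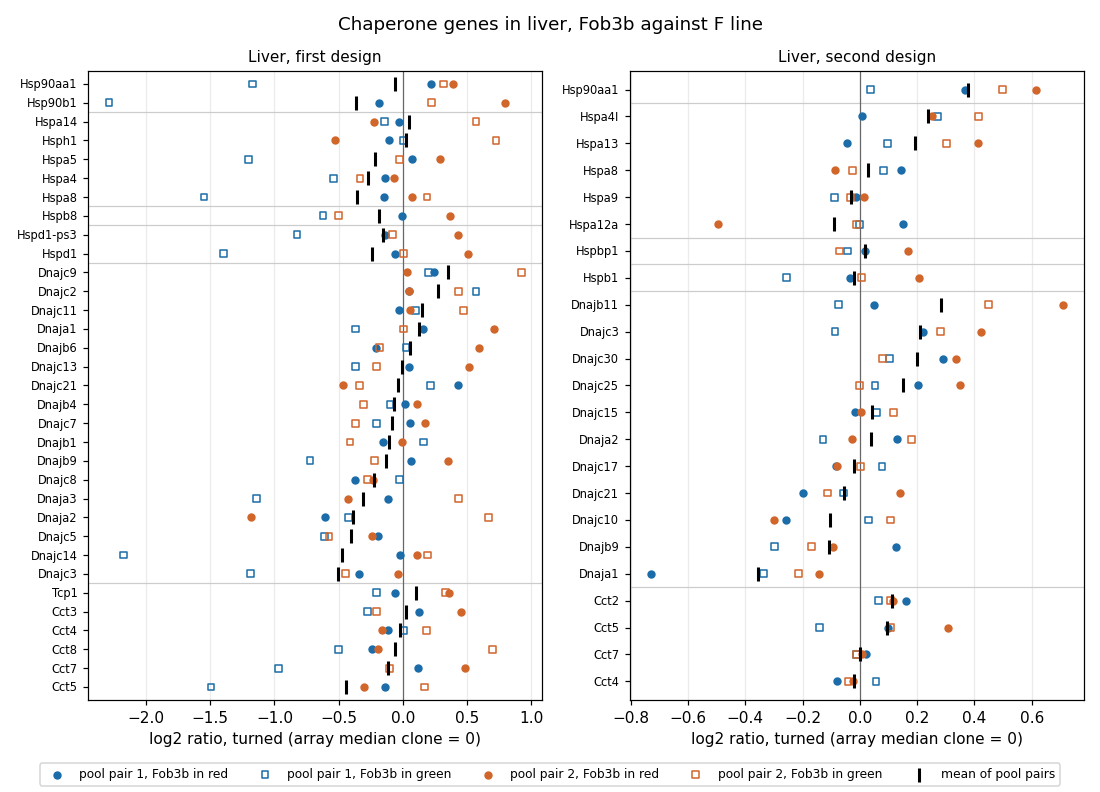
Log2 ratio of each chaperone gene in liver, Fob3b over F if red was divided by green, on the first design (left, 33 genes) and the second (right, 23 genes). Symbols are as in the plot for BAT. Among first-design values, the open blue squares, pool pair 1 with Fob3b in green, reach -2.29 for Hsp90b1, and on the second no value passes -0.73.

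The remaining liver arrays of the second design paired the same pools in other ways. All had pool 1 in green and pool 2 in red, with no dye swap. A dye offset and a pool difference cannot be told apart on them. The array of Fob3b pool 1 over F pool 2 gave Hsp90aa1 a log2 ratio of 0.97, and the array of Fob3b pool 2 over F pool 1 gave -0.53. Pool 2 over pool 1 was -0.55 within the Fob3b line and -0.23 within the F line. The ratio between the Fob3b pools was thus larger in size than the mean line ratio of 0.38, which averages both dye orientations. Hspa4l followed the same pattern over the crossed arrays, at 0.40 and -0.61, with -0.09 and -0.16 between pools.

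Dnaja1 lay on the other side on the crossed liver arrays, at 0.15 for Fob3b pool 1 over F pool 2 and 0.40 for Fob3b pool 2 over F pool 1. Pool 2 over pool 1 was 0.22 within the Fob3b line and 0.63 within the F line. With the crossed arrays added as further pool pairs, the mean of Hsp90aa1 was 0.30 and that of Dnaja1 was -0.04. Dnajb11 was at -0.02 and -0.05 on the crossed arrays and at 0.30 and 0.06 between pools.

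**Figure D3:**
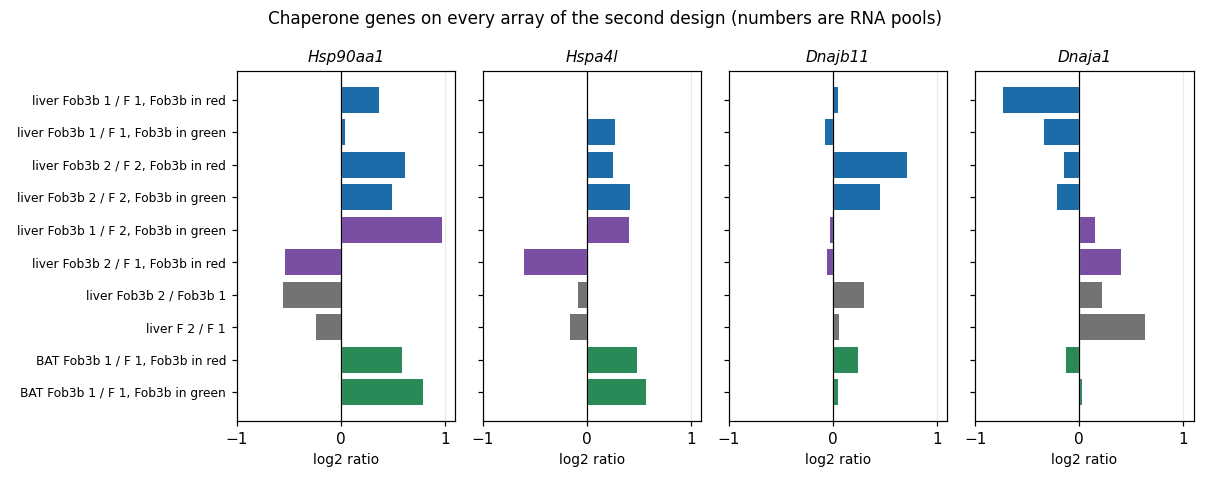
Log2 ratios of Hsp90aa1, Hspa4l, Dnajb11 and Dnaja1 on all 10 arrays of the second design, with bars starting at 0. Blue bars are liver arrays of equally numbered pools, violet bars crossed pools, grey bars pool 2 over pool 1 within a line, and green bars brown adipose tissue (BAT); Fob3b or pool 2 is the numerator if red was divided by green. Hsp90aa1 is positive on the 6 arrays of equally numbered pools and changes side between the crossed arrays. Violet and grey bars all have pool 2 in red, with no dye swap.

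By their channel labels, the liver pools hybridised with themselves on the first design hold no line difference. For the Fob3b array the depositors' description differs from these labels. The ratios of both arrays are red over green if red was divided by green. On the Fob3b array 10 of 33 chaperones were positive, against 44.7% of all genes, with a median of -0.15. On the F array 6 of 33 were, against 46.0% of all genes, with a median of -0.24. The median of all genes was -0.03 on each. These arrays were not turned, whereas line arrays with Fob3b in green were. Read as red over green, the chaperone median of the liver array that stood apart would be positive, opposite to the same-pool medians. Hsp90b1 was at -0.42 on the Fob3b array and -0.80 on the F array, Hspa5 at -0.33 and -0.48, and Dnajc3 at -0.34 and -0.52. Hspd1 was at -0.27 and -0.53 and Hspa8 at -0.35 and -0.59. Ratios of this size thus arose for these genes with the same RNA in both channels by label, and their part in the line values was not tested.

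**Figure D4:**
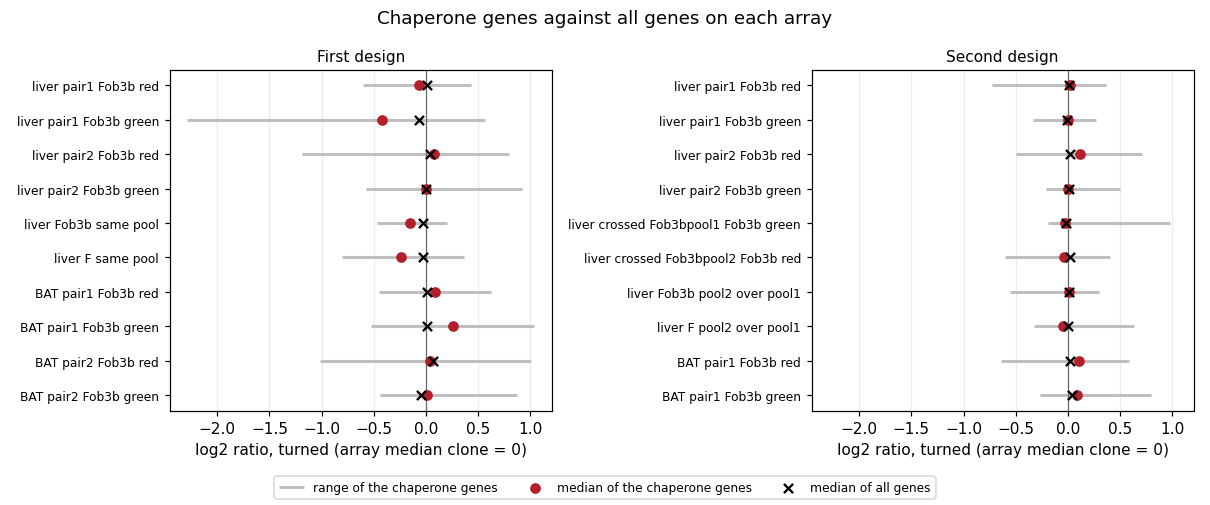
Median (red points) and range (grey lines) of the chaperone genes and median of all genes (crosses) on each of the 20 arrays, as log2 ratios with the median clone at 0. The chaperone median is lowest on the liver array of pool pair 1 with Fob3b in green, at -0.42 after turning. On the same-pool arrays, which are not turned, it is below all genes, at -0.15 for Fob3b and -0.24 for F.

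The tissues were compared on the first design, where liver minus BAT was below 0 for 27 of 33 chaperones, against 60.6% of all genes. The median difference was -0.26 for the chaperones and -0.06 for all genes. limma called no gene for this difference (0%), 113 genes passed at an unadjusted p under 0.05, and 2 chaperones were among them. These were Hspb8, at -0.19 in liver and 0.55 in BAT, with a difference of -0.74 and a standard error of 0.29, and Dnajc5, at -0.40 in liver and 0.30 in BAT, with a difference of -0.70 and a standard error of 0.26. Without liver pool pair 1 the difference was positive for 14 of 33 chaperones, against 52.4% of all genes, and the medians were -0.02 and 0.02.

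Helpers of the chaperones were described from lists that leave out the genes above. Of all genes, 45.4% in liver and 60.2% in BAT were positive on the first design, and 51.8% and 57.5% on the second. Of the cytosolic co-chaperones and prefoldin subunits on the first design, 10 of 19 measured were positive in liver and 12 of 19 in BAT. Pool pairs 1 and 2 gave 3 and 13 of 19 in liver, and 10 and 12 of 19 in BAT. On the second design 4 of 12 were positive in liver and 6 of 12 in BAT. Fkbp4 and Stip1, partners of Hsp90, averaged 0.06 and -0.14 in liver and 0.31 and 0.29 in BAT on the first design. Their BAT arrays of pool pair 2 lay far apart, at 0.99 and -0.30 for Fkbp4 and at 0.79 and -0.27 for Stip1. Cryab, a small heat shock protein outside the symbol rule that is abundant in muscle, averaged -0.27 in liver and 0.64 in BAT on the second design.

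Mitochondrial folding factors and proteases were positive in liver for 1 of 5 genes on the first design and 4 of 7 on the second. In BAT 5 of 5 on the first design, with a median of 0.19, and 7 of 7 on the second, with a median of 0.31, were positive. Pool pairs 1 and 2 of the first design gave 1 and 4 of 5 positive in liver, and 5 and 3 of 5 in BAT. Trap1, the Hsp90 of mitochondria, had log2 ratios of 0.22, 0.81, 0.22 and 0.36 in BAT on the first design. It was the only 1 of the 5 that was positive on every array there. Phb, a prohibitin of the inner membrane, had 0.35 and 0.36 in BAT on the second design. On the first design Phb had 0.56, -0.13, 1.25 and -0.47, so its sign followed the dye.

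Folding enzymes and stress genes of the ER were positive in liver for 3 of 12 genes on the first design and 15 of 15 on the second, with medians of -0.15 and 0.09. In BAT 11 of 12 and 10 of 15 were positive, with medians of 0.05 and 0.06. Pool pairs 1 and 2 of the first design gave 2 and 8 of 12 positive in liver, and 8 and 6 of 12 in BAT. On the liver array that stood apart the median was -0.60. In either tissue 0 of the 12 had 1 sign on all 4 arrays. Pool pairs 1 and 2 of the second design gave 10 and 15 of 15 positive in liver, with medians of 0.02 and 0.17. On all 4 liver arrays there, 3 of the 15 were positive (9.99% of all genes). P4hb, a disulfide isomerase, averaged 0.27 in liver on the second design and 0.22 in BAT, and Serpinh1, the collagen chaperone, averaged 0.25 in liver and 0.78 in BAT. limma called 0 genes of these lists. At an unadjusted p under 0.05 in liver on the second design, 4 of 12 co-chaperones and 2 of 15 ER genes passed, against 407 of all 4075 genes. Of the heat shock factors only Hsf5 was measured, at 0.11 in liver and -0.11 in BAT on the second design.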

How the data were processed

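Total RNA of mouse liver and BAT was measured on 20 arrays of 2 designs. For each spot the authors deposited 1 log ratio between the dyes, read here as log2, and no intensities; neither the log base, the numerator nor the normalization is given in the sources used here. Base 2 was taken because the highest deposited value is 7.12. Array medians as deposited ran from -0.82 to 1.40, so each array was centred on its median clone. The 2 spots of a clone, 160 rows apart, were averaged; 1920 control spots were left out. Clones matched 1 gene (4749 on the first design, 4855 on the second), several (227 and 274) or none (2704 and 2551) in the array annotation, updated to GRCm38.p6 symbols; those of several or none were not named. Paired spots correlated at 0.76 to 0.93 (first design) and 0.64 to 0.87 (second), and printing blocks held 12.6% to 74.1% and 6.61% to 46.8% of the variance.

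Ratios of arrays with both lines were turned to Fob3b over F by channel label, also on the second-design BAT arrays, where the description differed. Same-pool and between-pool arrays were not turned. The channel labels were also used for the Fob3b same-pool array, whose description differed. Clones were averaged per gene. Dye swaps of a pool pair were averaged, and limma 3.58.1 in R 4.3.3 tested tissue means against 0, two-sided, with Benjamini-Hochberg adjustment over all genes of a design and a threshold of 0.05. The method was tested on simulated data. Liver and BAT pools of 1 number share only that number. The number of arrays limits the precision. Genes are named where 1 sign held on every array (up to 4 a side with the largest mean), where both designs measured them, or as family, promoter or pool examples chosen after their values were seen. The members and lists were chosen with earlier results of these data known. Other settings tried are given in the closing section.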

Additional observations from a re-analysis of the deposited data

Results flagged for a closer look

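Over 89 gene and tissue groups of 4 arrays, 3 values lay far from the other arrays of their group by Dixon's criterion, and chance flags about 1 group in 20. In liver on the first design, the array of pool pair 1 with Fob3b in green gave Dnajc14 a log2 ratio of -2.17, with the nearest other array at -0.02, and Hsp90aa1 one of -1.17, with the nearest at 0.22. In BAT on the first design, the array of pool pair 2 with Fob3b in green gave Hsph1, an Hsp110, -0.31, with the nearest at 0.39. Cct2 on the second design was positive on all 4 liver arrays and negative on both BAT arrays, with means 0.13 apart, and that difference was not tested. Its values average 2 clones, which lay on opposite sides of 0 on both BAT arrays and on both liver arrays of pool pair 2.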

How the results depend on the processing

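Over 150 values recomputed under other settings, 122 kept their direction and side of the threshold or stayed close. In liver on the first design, where 0 genes were called and 9 of 33 chaperones were positive, leaving out a pool pair gave 0 to 15 genes called and 5 to 22 chaperones positive. The 15 came without pool pair 2 and held 1 chaperone, Hsp90b1. In BAT on the first design, with 0 genes called, leaving out a pool pair gave 0 to 2, the 2 without pool pair 2, and fitting the tissue alone gave 1. Liver minus BAT, with 6 of 33 chaperones positive, gave 3 to 14 when a pool pair was left out, and 3 with each printing block centred. With pool number as a replicate block in that contrast, 0 genes were called, as in the fit without it. Without the liver array of pool pair 1 with Fob3b in green, an alternative added after seeing the data, chaperones were positive 18 times in liver on the first design and 10 times in liver minus BAT.

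Without centring, the median over all genes moved to -0.11 in liver and 0.30 in BAT on the first design and to -0.36 and -0.33 on the second, so signs there are relative to those shifts. It gave 5 chaperones positive in liver on the first design, 1 in liver minus BAT, 1 in liver on the second design and 3 in BAT on the second. In BAT on the first design it gave 33 of 33 chaperones positive, with 98.2% of all genes, and 1 gene called, and turned Dnajc21 to 0.11 (it was -0.16). For liver on the second design, with 11 genes called, no centring gave 67, centred blocks 27 and single clones 25. There 0 were called with arrays scaled to a common spread, 0 when dye swaps counted as separate replicates and 0 with crossed-pool arrays added. Without centring, Hsp90aa1 was at 0.01 (it was 0.38) and Dnaja1 passed the threshold at -0.72 (it was -0.36) in liver on the second design, and Hsp90aa1 was at 0.32 (it was 0.69) in BAT there. In BAT on the second design 59 genes were past 1.5-fold, and 484 without centring and 23 with scaling. On the crossed, same-pool and between-pool arrays 5 of 158 chaperone values were past 1.5-fold, and 36 without centring and 9 with scaling. With centring, 0.761% to 9.46% of all genes were past 1.5-fold on single arrays of this kind. The cause was not tested. Leaving out a pool pair in liver on the second design leaves no residual degrees of freedom, so values with no test were given, and BAT there could not be fitted alone. With 2 pool pairs a tissue and no intensities, signal over background could not be judged.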
